A study of Mus musculus with 4 samples.

Results

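Mt1 and Mt2 encode metallothioneins, and the array carried 1 probe set for each gene. They were chosen as all probe sets whose single gene symbol in the platform annotation is Mt1 or Mt2, which gave 2 of 12422 probe sets, or 2 of the 8251 genes named on the array. The choice was made with their signals on these arrays known, so the values below are a description and carry no test. Total RNA from the liver of male C57BL/6 mice was read out on 4 Affymetrix GeneChips of the type MG_U74Av2, 1 array per group. The ADX mice had lost both adrenal glands, the main source of circulating glucocorticoids, and drank saline. The sham-operated mice kept their adrenal glands and drank water, and both kinds of mice ate standard chow freely. Sampling fell at ZT14 or ZT2, where zeitgeber time (ZT) counts hours from lights on. The groups are therefore ADX ZT14, ADX ZT2, sham ZT14 and sham ZT2. The labels state neither how many animals stand behind an array nor how long after the operation the liver was taken, and with a single array per group no value below has a replicate check.

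Metallothioneins are small proteins rich in cysteine that bind zinc and copper and buffer them in the cell. Their genes are switched on when the zinc-sensing transcription factor encoded by Mtf1 binds metal response elements in their promoters. In liver they are also known to be induced by glucocorticoids, by inflammatory cytokines and by fasting and other stress. Mt3 and Mt4, the other genes of the mouse family, are known for brain and for stratified epithelium. In the mouse genome the 4 genes stand side by side on chromosome 8 in the order Mt4, Mt3, Mt2 and Mt1.

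The promoters of Mt1 and Mt2 are shown because the members differed together between the times of day. The sequences are from RefSeq (GRCm38.p6), plus strand, with 250 bases before and 50 bases after the RefSeq start site, at chr8:94178839-94179138 for Mt1 and chr8:94172368-94172667 for Mt2. Capitals mark each match to the metal response element core, TGCACNC or TGCGCNC, on either strand.
Mt1: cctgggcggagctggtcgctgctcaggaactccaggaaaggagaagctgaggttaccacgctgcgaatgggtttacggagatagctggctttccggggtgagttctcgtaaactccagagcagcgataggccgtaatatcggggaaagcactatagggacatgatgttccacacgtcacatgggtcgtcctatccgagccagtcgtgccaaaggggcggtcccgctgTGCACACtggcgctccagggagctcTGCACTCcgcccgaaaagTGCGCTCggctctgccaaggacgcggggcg
Mt2: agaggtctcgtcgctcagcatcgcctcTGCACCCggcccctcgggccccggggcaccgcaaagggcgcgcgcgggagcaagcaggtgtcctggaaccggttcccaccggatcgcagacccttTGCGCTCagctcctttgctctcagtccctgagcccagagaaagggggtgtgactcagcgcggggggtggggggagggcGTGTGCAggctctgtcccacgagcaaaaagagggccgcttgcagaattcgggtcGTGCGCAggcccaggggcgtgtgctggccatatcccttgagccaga
The Mt1 window held 3 matches, whose first bases lie at positions -23, 3 and 21 from the start site, all on the plus strand. The Mt2 window held 4 matches, at -223 and -128 on the plus strand and at -50 and 5 on the minus strand, and none of the matches overlap. Among all 32851 promoter windows of the same length, 1.97% held at least 3 matches and 0.517% held at least 4. Mt3 and Mt4 each had 1 match, and 25.7% of all windows held at least 1. The glucocorticoid half-site AGAACA and the clock E-box CACGTG were found on neither strand of either window, against 19.0% and 7.15% of all windows with at least 1 match. The antioxidant response element core TGACNNNGC was found once in Mt2, at position -79, and not in Mt1, against 12.4% of all windows. The glucocorticoid response elements known for this locus lie farther upstream of Mt2, outside both windows, and a match or its lack is a description of these letters alone. The start sites are those of the RefSeq table. Other start sites in use for these genes may lie farther downstream, and sequence past the windows was not read, so the positions, the counts of matches and the absence of a match hold only for the windows as drawn.

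As the plot of metallothionein signals by array shows, both members were bright at ZT14 and dim at ZT2, with and without adrenal glands. The scaled signal of Mt1 was 861.4 on the ADX ZT14 array and 50.3 on ADX ZT2, and 306.8 on sham ZT14 and 47.8 on sham ZT2. The scaled signal of Mt2 was 327.7 on ADX ZT14 and 50.5 on ADX ZT2, and 206.5 on sham ZT14 and 25.8 on sham ZT2. For each gene the lower of the ZT14 arrays lay above the higher of the ZT2 arrays. The signal is an Affymetrix intensity in arbitrary units, brought to a common trimmed mean between arrays, and the signals of different probe sets are not set against each other.

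**Figure D1:**
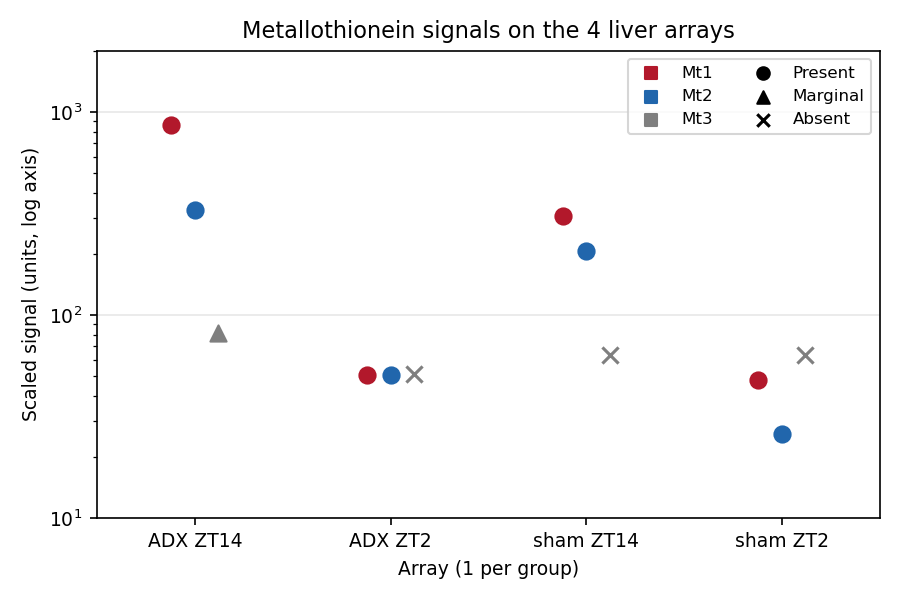
Scaled signal in arbitrary units (log axis) of Mt1, Mt2 and Mt3 on the 4 liver arrays, 1 point per array, with the marker giving the detection call. Mt1 and Mt2 were Present on all 4 arrays and brighter on both ZT14 arrays than on both ZT2 arrays, while Mt3 was Marginal on ADX ZT14 and Absent on the others.

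Both members had a Present call on every array, but the calls were closer to the limit at ZT2. The authors' deposited detection p-value of Mt1 was 0.000219 on ADX ZT14, 0.013092 on ADX ZT2, 0.000219 on sham ZT14 and 0.035163 on sham ZT2. That of Mt2 was 0.000562 on ADX ZT14, 0.013092 on ADX ZT2, 0.000673 on sham ZT14 and 0.019304 on sham ZT2. The largest such value with a Present call on any array was 0.039365. The ZT2 signals, which are the lower side of both day-night folds, were therefore the less firmly detected ones.

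The other metallothioneins were not detected in this way. Mt3 had scaled signals of 81.1 on ADX ZT14 and 50.9 on ADX ZT2, and 63.6 on both sham arrays, with a Marginal call on ADX ZT14 and Absent calls on the rest. Mt4 was Absent on all 4 arrays, with signals between 1.7 and 3.1. The deposited probe set descriptions give the target of Mt1 and of Mt2 as a coding sequence of 186 bases each, with no untranslated sequence. These coding sequences belong to close relatives, and the probe sequences were not used here, so how far each probe set also reads the other gene was not tested.

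The comparison of ZT14 with ZT2 asks which liver genes differ between early night and early day. In the ADX pair Mt1 was 17.1-fold higher at ZT14 (log2 4.10) and Mt2 was 6.49-fold higher (log2 2.70). In the sham pair Mt1 was 6.41-fold higher at ZT14 (log2 2.68) and Mt2 was 8.0-fold higher (log2 3.0). Calls were made by size alone, with no p-value: a call needed a difference of 2-fold or more and a Present call on whichever array was brighter. Both members were called higher in both pairs, where 2.99% of 5927 probe sets were called higher and 2.53% lower in the ADX pair (5.52% either way), and 3.54% of 5957 higher and 2.62% lower in the sham pair (6.16% either way). Because the members were chosen from these signals, nothing is read from that count.

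Among all probe sets, the members stood near the top of each pair. In the ADX pair 1 probe set had a higher log2 difference than Mt1, that of Dbp, a clock output transcription factor, whose ZT2 signal was not Present. Above Mt2 in that pair were 8 probe sets, those of Dbp, Mt1, Noct, Tef, the cytochrome P450 gene Cyp2b9, Usp2, Kap and Dync1i1, of which Dbp, Usp2, Kap and Dync1i1 were not Present at ZT2. Of the 5167 probe sets Present on both ADX arrays, 0 had a higher log2 difference than Mt1 and 4 had a higher one than Mt2. In the sham pair 5 probe sets were higher than Mt1 and 4 were higher than Mt2. The 4 were Dbp, Noct, which encodes the rhythmic deadenylase-like protein nocturnin, and both probe sets of Usp2, a rhythmic ubiquitin protease. Mt2 itself was the fifth above Mt1. The spread of log2 differences among probe sets Present on both arrays had a robust SD of 0.33 in the ADX pair and 0.35 in the sham pair. Other probe sets Present on both arrays with a mean signal within 2-fold of the member's were counted if at least as much higher at ZT14. This held for 0 of 683 around Mt1 in the ADX pair and for 2 of 1453 in the sham pair. In either direction the latter count was 3. For Mt2 the counts were 3 of 1400 in the ADX pair and 1 of 1889 in the sham pair. These sets were matched on the mean of both arrays, not on the members' dimmer ZT2 signals.

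The day-night difference of Mt1 was larger in the ADX pair than in the sham pair, and that of Mt2 was close to equal in both. The ADX log2 difference exceeded the sham one by 1.42 for Mt1, a ratio of folds of 2.67. For Mt2 the ADX difference minus the sham difference was -0.30. Among the 4877 probe sets Present on all arrays, where this quantity had a robust SD of 0.37, 14 were higher than Mt1 and 2089 were farther from 0 than Mt2. The pairs share no array, but with 1 array per group the difference between them has no test. In the plot of day-night differences Mt1 lies above the line of equal difference and Mt2 lies just under it.

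**Figure D2:**
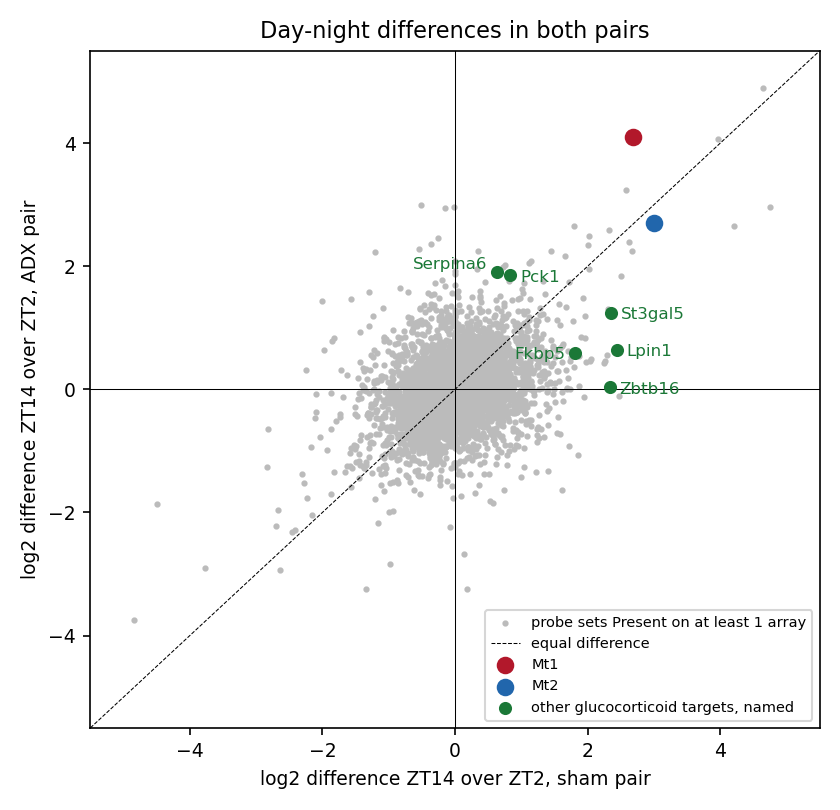
Log2 difference ZT14 over ZT2 of each of 6583 probe sets Present on at least 1 array, in the ADX pair (vertical) against the sham pair (horizontal). Mt1 (4.10 in ADX, 2.68 in sham) and Mt2 (2.70 in ADX, 3.0 in sham) are high on both axes, and of the 6 glucocorticoid targets in green, Lpin1, Zbtb16, St3gal5 and Fkbp5 lie below the line of equal difference and Serpina6 and Pck1 above it. The 6 were picked after their values were seen.

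The comparison of ADX with sham sets liver of mice without adrenal glands beside that of mice with them. The ADX mice also drank saline and the sham mice water, so operation and drinking fluid cannot be told apart. At ZT14 Mt1 was 2.81-fold higher in ADX (log2 1.49) and was called, while Mt2 was 1.59-fold higher (log2 0.67), short of 2-fold. At this time 4.2% of 5810 probe sets were called either way, 2.53% higher and 1.67% lower. At ZT2 Mt2 was 1.95-fold higher in ADX (log2 0.97), just short of 2-fold, and Mt1 had a log2 difference of 0.07. At ZT2 2.65% of 6046 probe sets were called either way, 1.79% higher and 0.86% lower, and neither member was among them. The ZT2 value of Mt1 has no settled direction, since it was -0.10 with the signals as deposited, without scaling between arrays.

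Mt2 thus had a higher signal in ADX at both times, short of 2-fold at each, while Mt1 was past 2-fold at ZT14 and near 0 at ZT2. The log2 difference of Mt1 minus that of Mt2 was 0.82 for ADX over sham at ZT14 and -0.90 for ADX over sham at ZT2. Of 567 other probe sets Present on both ZT14 arrays with a mean signal within 2-fold of that of Mt1, 1 differed as much as Mt1 in either direction. Of 1098 around the signal of Mt2, 44 differed as much as Mt2. At ZT2 18 of 2379 around the signal of Mt2 differed as much as Mt2, and 1969 of 2448 around the signal of Mt1 differed as much as Mt1. The ADX ZT14 array enters both the day-night difference of Mt1 in ADX and its ADX over sham difference at ZT14, so these values are not independent of each other. Likewise the low sham ZT2 signal of Mt2, 25.8, enters both its sham day-night fold and its ADX over sham difference at ZT2.

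**Figure D3:**
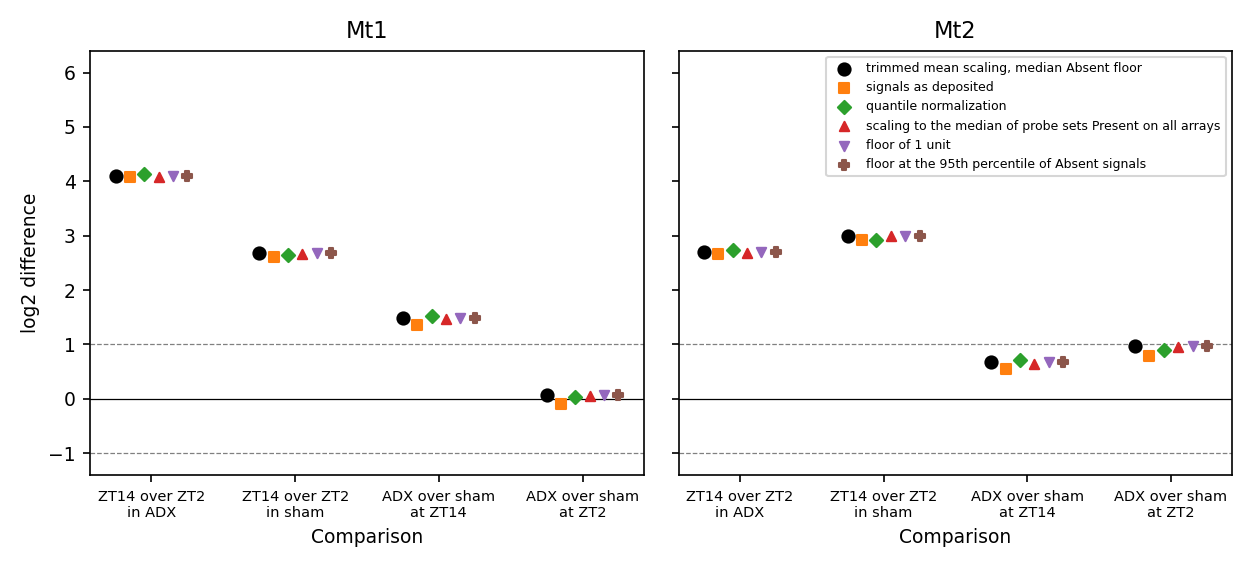
Log2 differences of Mt1 (left) and Mt2 (right) in the 4 comparisons under 6 settings of scaling and signal floor, 1 point per setting, with dashed lines at a 2-fold difference. The day-night differences and that of Mt1 for ADX over sham at ZT14 lie past 2-fold under every setting shown, and those of Mt2 for ADX over sham lie between 0.54 and 0.97. Every floor lies below all signals of both genes, so settings that differ only in floor give equal values by construction.

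Other properties of the arrays bear on these values. The numbers of Present probe sets were 5513 on ADX ZT14 and 5779 on ADX ZT2, and 5581 on sham ZT14 and 5835 on sham ZT2. All 9 hepatocyte marker genes on the array, Alb and Apoa1 among them, were Present on all 4 arrays. Of 15 markers of blood and immune cells, 9 were Present on at least 1 array and Cd3e, Cd4, Cd8a, Itgam and S100a9 were Absent on all. The summed signal of all 15, undetected ones included, was 2305.2 on ADX ZT14 and 1773.4 on ADX ZT2, and 1322.5 on sham ZT14 and 2044.3 on sham ZT2. Most of it came from the haemoglobin gene Hba-a1, a red cell marker, at 1788.8 on ADX ZT14 and 873.8 on sham ZT14. This sum was higher in ADX at ZT14, as Mt1 was, and its part in that difference was not tested. Of 11 markers of endothelial, stellate and bile duct cells 5 were Present on at least 1 array, and the sums over all 11 lay between 183.8 and 217.5. Of 12 markers of kidney, adrenal, pancreas and fat 4 were Present on at least 1 array. The sum over all 12, which rests in part on undetected signals, was 319.0 on ADX ZT14 and 316.1 on ADX ZT2, and 217.4 on sham ZT14 and 255.3 on sham ZT2. Unlike the sum of blood and immune markers, this sum was higher in ADX at both times. Within it the kidney gene Kap was Present on ADX ZT14 alone, with a signal of 39.8 there and 5.1 on ADX ZT2, and 4.0 on sham ZT14 and 4.1 on sham ZT2, so it was high on the array where Mt1 was highest. It was called higher at ZT14 in ADX (log2 2.96) and higher in ADX at ZT14 (3.31), against dim signals without a Present call. Of the other kidney genes, Slc12a1 was Present on ADX ZT2 alone, with a signal of 9.3 there and 7.0 on ADX ZT14. It had 6.4 on sham ZT14 and 3.2 on sham ZT2, and was called higher in ADX at ZT2 (log2 1.25). Umod and Aqp2 were Absent on all 4 arrays. The part of these markers in the ADX over sham differences was not tested. In whole liver, fewer cells of a type and less RNA per cell cannot be told apart.

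The genes whose pattern over the 4 arrays was most like that of each member were looked up next. Likeness was the Euclidean distance between log2 signals centred on each probe set's mean, over 4624 probe sets with 1 gene symbol that were Present on both ZT14 arrays, a condition met from the side on which the members are high. Mt2 was the closest of all to Mt1, at a distance of 1.02. After it came a pair of probe sets of Noct (1.13 and 1.25), then Tef (1.34), a transcription factor related to Dbp, Bhlhe40 (1.46), a repressor of the clock, Per2 (1.47), a core clock repressor, and a probe set of Usp2 (1.56). For Mt2 the closest were Bhlhe40 (0.79), the inducible heat shock gene Hspa1b (0.88), a dim probe set of Noct (0.93), Per2 (0.94) and a probe set of Usp2 (0.98), and 5 probe sets were closer to it than Mt1. The dim probe set of Noct and that of Usp2 were Absent on both ZT2 arrays, and Per2 was Absent on ADX ZT2, so these distances rest in part on undetected signals or on the floor. The signals of Bhlhe40 were 209.5 on ADX ZT14 and 44.0 on ADX ZT2, and 220.9 on sham ZT14 and 34.8 on sham ZT2. Its ADX over sham differences were -0.08 at ZT14 and 0.34 at ZT2, beside 0.67 and 0.97 for Mt2. Distances over 4 arrays describe shape and size only.

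Other genes that move zinc or sense it were listed beside the metallothioneins. Of 23 listed genes 13 were on the array and 11 were Present on at least 1 array, and 0 of the 11 passed 2-fold in any of the 4 comparisons. With 5.52% and 6.16% of all probe sets called in the ADX and sham day-night pairs, and 4.2% and 2.65% for ADX over sham at ZT14 and ZT2, a count of 0 of 11 is near the share over all probe sets, and nothing is read from it. The median log2 difference of the list was -0.04 for ZT14 over ZT2 in ADX and -0.04 in sham, and 0.05 for ADX over sham at ZT14 and 0.12 at ZT2. The medians over all 6583 measured probe sets lay between 0.00 and 0.02. Slc30a1, the zinc exporter of the plasma membrane and a known target of the same metal sensor, had dim signals of 10.7 on ADX ZT14 and 12.3 on ADX ZT2, and 10.8 on sham ZT14 and 13.1 on sham ZT2. Its log2 difference was -0.20 in the ADX pair and -0.28 in the sham pair. Mtf1, the metal sensor itself, was Absent on all 4 arrays. Slc39a4, a zinc importer, had -0.36 in the ADX pair and -0.44 in the sham pair. Slc30a5, a zinc transporter of the secretory pathway, had 0.25 in ADX and 0.83 in sham, and its other probe set gave 0.55 in ADX and 1.31 in sham, the sham value past 2-fold.

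Genes that handle copper and iron were listed too. Of all probe sets, 5.52% were called in the ADX day-night pair and 6.16% in the sham pair. For ADX over sham the shares were 4.2% at ZT14 and 2.65% at ZT2. The lists are small, and nothing is read from their counts. Of 14 copper genes other than the metallothioneins, 9 were measured and 0 passed 2-fold in any comparison. Cp, which encodes the copper carrier ceruloplasmin, had -0.65 in the ADX pair and -0.45 in the sham pair. Ccs, the copper chaperone of superoxide dismutase, had -0.17 in ADX and -0.08 in sham, though a dim probe set of it gave 1.59 in ADX and 0.37 in sham. Of 11 measured iron genes Hmox1, the haem oxygenase that frees iron from haem, was the only one past 2-fold. Bmp6 was not among the 11, since the probe set that represents it was Absent on every array. The other, dim probe set of Bmp6 was called in every comparison, each time against an Absent signal under the floor. It gave -1.08 in the ADX pair and 1.86 in the sham pair. For ADX over sham it gave -1.86 at ZT14 and 1.08 at ZT2. The signals of Hmox1 were 82.7 on ADX ZT14 and 60.9 on ADX ZT2, and 91.6 on sham ZT14 and 29.9 on sham ZT2. By scaled signal Hmox1, like Mt1 and Mt2, was lowest on the sham ZT2 array, though for Mt1 this order reversed with signals as deposited. Hmox1 was called higher at ZT14 in sham (log2 1.62) and higher in ADX at ZT2 (1.03), and had 0.44 in the ADX pair. The hepcidin gene Hamp, the liver's regulator of iron uptake, had -0.20 in ADX and 0.26 in sham.

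Genes of glutathione synthesis and targets of the oxidative stress factor NRF2 were listed next. Of 18 measured members, 0 passed 2-fold in the ADX pair, and Hmox1 was higher and Gclc lower at ZT14 in the sham pair, beside 5.52% of all probe sets called in the ADX pair and 6.16% in the sham pair. Nothing is read from counts of this size. Gclc, the rate-limiting enzyme of glutathione synthesis, had signals of 317.1 on ADX ZT14 and 436.2 on ADX ZT2, and 234.2 on sham ZT14 and 536.5 on sham ZT2. Its log2 difference was -0.46 in ADX and -1.20 in sham, opposite in sign to those of Mt1 and Mt2. For ADX over sham, 0 of the 18 passed at ZT14, where Srxn1 had -0.98, and Hmox1 alone passed at ZT2. At these times 4.2% and 2.65% of all probe sets were called either way, and nothing is read from these counts either. The list's median was 0.04 in the ADX pair and -0.02 in the sham pair.

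**Figure D4:**
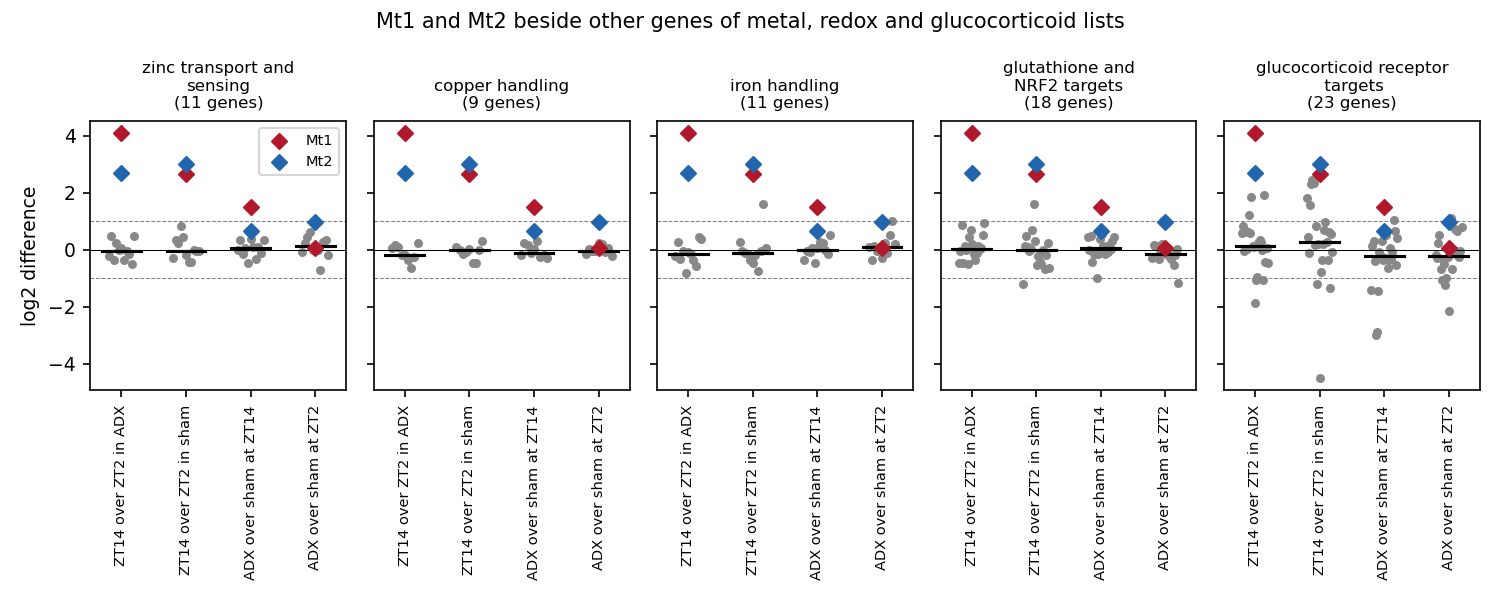
Log2 differences of the measured members of 5 gene lists (grey points, black bar at the median) in the 4 comparisons, with Mt1 and Mt2 as diamonds and dashed lines at a 2-fold difference. No measured list member is as high as either metallothionein in the day-night difference of either pair, while Igfbp1, at -4.50 in the sham pair, differs more in size in the other direction.

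Metallothioneins are counted among glucocorticoid targets, and the other genes of that list were therefore set beside them. Of 23 measured targets other than Mt1 and Mt2, 3 were higher and 3 lower at ZT14 in the ADX pair, and 5 were higher and 3 lower in the sham pair, beside 5.52% of all probe sets called either way in the ADX pair and 6.16% in the sham pair. The 3 higher ones in ADX were St3gal5, Pck1 and Serpina6, and the 3 lower ones were Igfbp1, Klf9 and Bcl6. Klf9 had -1.04 there, but -0.28 by its other probe set. The 5 higher ones in sham were Fkbp5, Dusp1, Zbtb16, Lpin1 and St3gal5, and the 3 lower ones were G6pc, Igfbp1 and Pdk4. Igfbp1, an insulin-repressed binding protein gene, had -1.86 in ADX and -4.50 in sham. For ADX over sham at ZT14, 4 were lower and 1, the corticosteroid-binding globulin gene Serpina6, was higher (log2 1.05). The other probe set of Serpina6 gave 0.45, short of 2-fold. Errfi1 was not counted at -0.63, but its other probe set, also Present on all arrays, gave -1.19. The 4 lower ones were Zbtb16, a zinc finger transcription factor, at -2.98, Lpin1, a phosphatidate phosphatase, at -2.87, St3gal5, a ganglioside synthase, at -1.44 and Fkbp5, which encodes a co-chaperone of the steroid receptors, at -1.41. Mt1 and Mt2 had 1.49 and 0.67 in the same comparison. For ADX over sham at ZT2, 1 was higher, the cell cycle inhibitor gene Cdkn1a (log2 1.11), and 3 were lower, Igfbp1 at -2.13, Pck1 at -1.24 and Lpin1 at -1.07. Of all probe sets, 4.2% were called at ZT14 and 2.65% at ZT2. The list was written with earlier results of these data known. The shares are therefore no yardstick for its counts, and nothing is read from them.

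Zbtb16, Lpin1, St3gal5 and Fkbp5 had smaller day-night differences in the ADX pair than in the sham pair, while Serpina6 and Pck1, like Mt1, had larger ones in the ADX pair. These 6 of the 23 measured targets were picked after their values were seen. Targets left out went either way in size. The differences of G6pc (0.14 in ADX, -1.18 in sham) and Dusp1 (0.67 in ADX, 1.58 in sham) were smaller in ADX. That of Bcl6 (-1.06 in ADX, -0.34 in sham) was larger in ADX. Lpin1 had signals of 44.3 on ADX ZT14 and 28.5 on ADX ZT2, and 324.0 on sham ZT14 and 59.9 on sham ZT2. Its log2 difference was 0.64 in ADX and 2.44 in sham. The differences were 0.03 in ADX and 2.33 in sham for Zbtb16, 1.24 in ADX and 2.35 in sham for St3gal5, and 0.59 in ADX and 1.81 in sham for Fkbp5. Serpina6 had 1.91 in ADX and 0.63 in sham, with 1.03 in ADX and 0.92 in sham by its other probe set, and Pck1, an enzyme of glucose synthesis, had 1.85 in ADX and 0.83 in sham. Mt1 and Mt2, at 4.10 and 2.70 in ADX against 2.68 and 3.0 in sham, were above all 6 of these genes in both pairs. Nr3c1, which encodes the glucocorticoid receptor, had dim signals of 14.2 on ADX ZT14 and 15.5 on ADX ZT2, and 21.1 on sham ZT14 and 17.4 on sham ZT2, all Present.

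The measured genes next to the cluster on the chromosome stayed within 2-fold between ZT14 and ZT2 in the ADX pair. In the sham pair Herpud1 was past 2-fold higher at ZT14, though less so than Mt1 and Mt2. These neighbours were looked up after the members' values had been seen. Of 6 protein-coding genes on each side of the metallothioneins in the RefSeq gene order, 6 in all were on the array and 5 were Present on at least 1 array. Their log2 differences lay between -0.65 and 0.26 in the ADX pair and between -0.30 and 1.40 in the sham pair. The highest was Herpud1, a gene of the endoplasmic reticulum stress response, with signals of 759.4 on ADX ZT14 and 633.0 on ADX ZT2, and 1241.5 on sham ZT14 and 469.3 on sham ZT2. Nup93, a nuclear pore gene next to Mt1 in that order, had -0.65 in ADX and -0.30 in sham, with signals between 7.3 and 11.4.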

How the data were processed

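Total RNA of mouse liver was hybridised to 4 arrays, 1 per group, with operation and time read from each sample's title. Per the file headers, the authors deposited single-array (absolute) Affymetrix output: for every probe set a Signal, which is a linear intensity, its Present, Marginal or Absent call and the p-value of that call. The deposited p-value is given as it stands and was used in no test. Neither the software nor a scaling target is stated in the labels or headers. The series value table held the same intensities (largest difference 0).

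The 2% trimmed means were 55.69 on ADX ZT14 and 57.01 on ADX ZT2, and 60.82 on sham ZT14 and 64.24 on sham ZT2, and each array was multiplied to their common mean (factors 1.067, 1.043, 0.977 and 0.925). The 66 control probe sets were left out, signals under 3.91 units (the median Absent signal, above the lowest Present signal of 3.05) were set to that floor, and log2 was taken. Robust SD is the scaled median absolute deviation. Symbols came from the platform annotation, with a single symbol for 10855 probe sets and more than one for 396, which named no gene. A listed gene is represented by the probe set whose mean signal was highest, and counts as measured if any array called it Present.

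Members and lists were chosen with earlier results of these data known. The lists cover zinc, copper, iron, glutathione and NRF2, glucocorticoid targets and cell markers. Named genes are the metallothioneins, zinc, copper and iron genes past 2-fold, Mtf1, Slc30a1, Nr3c1, the 5 genes most like each member, up to 10 with a higher day-night difference, and others chosen after their values were seen. With 1 array per group no statistical test of a difference was made. The scaling and the fold rule were checked on simulated arrays with known differences. Alternatives were 3 other scalings, floors of 1 and 23.9 units, a 4-fold threshold, Present calls on both arrays and averaged probe sets. The tools were pandas 2.3.3 and NumPy 2.4.6 under Python 3.11.15.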

Additional observations from a re-analysis of the deposited data

How the results depend on the processing

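The number of arrays limits the precision, and no setting adds a replicate. The 4 day-night differences of Mt1 and Mt2, and that of Mt1 for ADX over sham at ZT14, stayed past 2-fold under the 3 other scalings. Their direction stayed the same. The ADX over sham differences of Mt2 stayed positive and under 2-fold. The floors of 1 and 23.9 units lie below every signal of Mt1 and Mt2, the lowest being 25.8. These floors therefore could not change the members' values. Mt1 for ADX over sham at ZT2 reversed to -0.10 with signals as deposited. A second probe set could not be tried, since each gene has 1. No paired analysis was possible because each group has 1 array. The probe sets called numbered 327 for ZT14 over ZT2 in ADX, 367 in sham, 244 for ADX over sham at ZT14 and 160 at ZT2. In that order they fell to 120, 141, 46 and 20 with a floor of 23.9 units, to 144, 182, 62 and 40 when Present on both arrays, and to 35, 42, 15 and 10 at 4-fold, settings that by construction admit fewer. The direction of calls depended on scaling. The higher and lower calls were 177 and 150 in the ADX pair (146 and 201 under quantile normalization), 211 and 156 in the sham pair (162 and 192, or 173 and 198 as deposited), 147 and 97 for ADX over sham at ZT14 (117 and 120, or 106 and 137), and 108 and 52 at ZT2 (67 and 80, or 69 and 90). Among lists, averaging a gene's probe sets brought 1 zinc gene past 2-fold in the sham pair and left 3 glucocorticoid targets for ADX over sham at ZT14. Quantile normalization left 0 iron and 0 glutathione and NRF2 genes called at ZT2 for ADX over sham, and called 1 glutathione and NRF2 gene at ZT14. The cause of these moves was not tested.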
